A study of Homo sapiens with 16 samples.

Results

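The HOTAIR deletion forms Epi-HOT-dL and Epi-HOT-dP were compared directly for where LSD1 sat on the chromosomes. LSD1 was mapped by chromatin immunoprecipitation and sequencing (ChIP-seq) in HEK-based human cell lines, and the comparison used the immunoprecipitated (IP) libraries of 2 replicate cultures of each form, 4 of the 16 libraries of the series. From background knowledge of the study, Epi-HOT-dL cells express HOTAIR without the part that contacts LSD1, and Epi-HOT-dP cells express HOTAIR without the part that contacts PRC2. The labels give the line names alone, with no promoter, clone or expression level of either form, so a difference between them is a difference between 2 cell lines. Epi-CTR (the control line) and Epi-HOT (full-length HOTAIR) served only to look up regions found in the deletion forms.

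LSD1 (KDM1A) is an enzyme that strips methyl groups from lysines of histone H3, mostly as a subunit of the CoREST repressor complex. PRC2 places methyl groups on another lysine of the same histone, and genes marked by it are usually silent. HOTAIR is a long non-coding RNA transcribed from within the HOXC cluster and is described as a scaffold that can hold LSD1 and PRC2 by separate parts of the molecule.

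The deposited measurement is a list of LSD1 islands per IP library, each a stretch with more IP than Input reads, with a false discovery rate (FDR) given by the authors' caller. Islands on the 22 autosomes of the 4 lists were merged where they shared at least 1 bp, which gave 28698 regions, against 41637 when the Epi-CTR and Epi-HOT lists were merged in as well. A region was dL-only where both Epi-HOT-dL libraries and neither Epi-HOT-dP library had an island, dP-only in the reverse case, and kept where all 4 had one. There were 3134 dL-only, 127 dP-only and 6 kept regions. These were 10.9%, 0.443% and 0.0209% of all regions, while 21488 regions (74.9%) had an island in 1 library alone. No p-value is attached to these counts, since the lists hold no reads, and a region without an island may hold LSD1 below the limit of detection.

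Epi-HOT-dP replicate 1 stood apart from the other libraries, and results that use it are also given without it. It had 1114 islands, and 28.8% of them (321) fell in 1 part of chromosome 13, from 90 to 110 Mb. The same part took 1.86% of the islands in its replicate, and 0.914% and 0.44% in the Epi-HOT-dL replicates. A further 3.41% of its islands fell in a 2 Mb stretch of chromosome 8, against at most 0.26% in the other 3 libraries. Its islands were few but carried small FDRs, with a median of 1.29e-13 against 0.00282 in its replicate and 0.00797 and 0.00266 in Epi-HOT-dL. Sequencing depth and IP yield are unknown for all 4 libraries, and their part in these differences was not tested.

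The deletion forms differed most plainly in how many islands of LSD1 were called at the authors' FDR limit of 0.05. Epi-HOT-dL replicates 1 and 2 had 16740 and 15681 islands, and Epi-HOT-dP replicates 1 and 2 had 1114 and 8077. The groups did not overlap, but the Epi-HOT-dP replicates were 7.25 times apart and the Epi-HOT-dL replicates 1.07 times. The means were 16210.5 ± 749 (SD, n = 2) and 4595.5 ± 4923.6 (SD, n = 2), and the geometric means differed 5.4 times (p = 0.333 in an exact two-sided permutation test, with 6 regroupings none smaller, and 0.5 after Benjamini-Hochberg adjustment over 3 measures). Without Epi-HOT-dP replicate 1 the ratio was 2.01, and without replicate 2 it was 14.5. The ratio shrank with stricter limits, to 2.85 at an FDR of at most 0.001. At a limit of 1e-05, added after seeing the data, it was 1.55.

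Covered length separated the lines less clearly. The islands spanned 77.2 and 202 Mb in Epi-HOT-dL and 12.6 and 78.3 Mb in Epi-HOT-dP, so Epi-HOT-dP replicate 2 covered slightly more than Epi-HOT-dL replicate 1. The ratio of geometric means was 3.98 (exact two-sided permutation p = 0.667), and it was 1.6 without Epi-HOT-dP replicate 1 and 9.93 without replicate 2. Island width went the other way. Median widths were 3.8 and 7.6 kb in Epi-HOT-dL against 9.8 and 8.6 kb in Epi-HOT-dP, which put both Epi-HOT-dP values above both Epi-HOT-dL values. The ratio of Epi-HOT-dL to Epi-HOT-dP was 0.585 (exact two-sided permutation p = 0.333, adjusted 0.5). With every list cut by FDR to 1114 islands the ratio turned to 1.16.

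**Figure D1:**
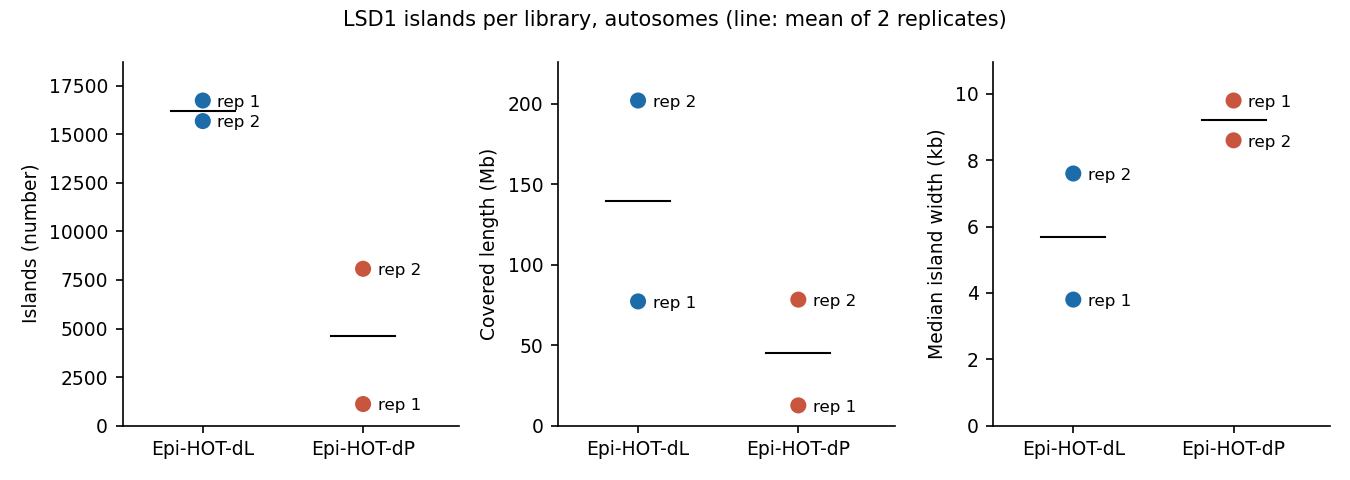
Number of islands, covered length in Mb and median island width in kb for each library (points) on autosomes, with the mean of 2 replicates as a line. Both Epi-HOT-dL libraries lie above both Epi-HOT-dP libraries in number (15681 and 16740 against 1114 and 8077), while covered length overlaps at 77.2 and 78.3 Mb and widths are higher in Epi-HOT-dP.

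LSD1 islands of Epi-HOT-dL met those of the other replicate more often than those of either Epi-HOT-dP library. An island of Epi-HOT-dL replicate 1 met one of replicate 2 in 40.7% of cases and one of Epi-HOT-dP replicate 2 in 16%. For islands of Epi-HOT-dL replicate 2 the shares were 33.7% and 22.7%. A list that covers more is easier to meet, and covered length was not held fixed. The lists met covered 202 and 78.3 Mb for replicate 1, and 77.2 and 78.3 Mb for replicate 2. Islands of Epi-HOT-dL replicate 2 met Epi-CTR replicates 1 and 2 in 39% and 28.6% of cases. They met Epi-HOT replicates 1 and 2 in 22.7% and 1.39%. The Epi-HOT-dL replicates shared 35.1 Mb, a Jaccard index (shared bases over bases in either list) of 0.144. Epi-HOT-dL replicate 2 and Epi-HOT-dP replicate 2 shared 37.4 Mb, an index of 0.154, and 53.9% of the islands of the latter met an island of the former. Epi-HOT-dL replicate 1 and Epi-HOT-dP replicate 2 had an index of 0.0878. Outside the deletion forms, Epi-HOT-dL replicate 2 had indices of 0.147 and 0.126 with Epi-CTR replicates 1 and 2. With Epi-HOT replicates 1 and 2 its indices were 0.214 and 0.00305. Between the Epi-HOT-dP replicates, with 1114 and 8077 islands, the index was 0.0171, which the shorter list limits. Of replicate 1 islands 17.7% touched one of replicate 2, and of replicate 2 islands 2.45% touched one of replicate 1. With Epi-HOT-dP replicate 1, the Epi-HOT-dL replicates had indices of 0.00518 and 0.001. Of the 4 indices between the deletion forms, 1 was thus above that of the Epi-HOT-dL replicates. The 2 that involve Epi-HOT-dP replicate 1 were below that of the Epi-HOT-dP replicates.

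Of the 5042 regions held by both Epi-HOT-dL libraries, 62.2% (exact binomial 95% interval 60.8 to 63.5, counting error only, as for all intervals here) had no island in Epi-HOT-dP. Epi-HOT-dP replicate 2 alone held 1888 of them (37.4%), replicate 1 alone held 14 (0.278%), and both held 6 (0.119%). Nearly all sharing between the lines was thus with replicate 2. Both Epi-HOT-dP libraries held 192 regions, of which 127 (66.1%, 59 to 72.8) had no island in Epi-HOT-dL, 43 had one in its replicate 1 alone, 16 in its replicate 2 alone, and 6 in both.

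Counting bases instead of regions gave a similar division. Both Epi-HOT-dL libraries covered the same 35.1 Mb, of which 72.8% had no Epi-HOT-dP island, 27.2% lay in an island of Epi-HOT-dP replicate 2 and 0.0973% in one of replicate 1. The 1.52 Mb that both Epi-HOT-dP libraries covered were outside Epi-HOT-dL islands for 89.5%. Islands of all 4 libraries coincided over 0.0046 Mb, while the 6 kept regions spanned 0.0862 Mb.

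**Figure D2:**
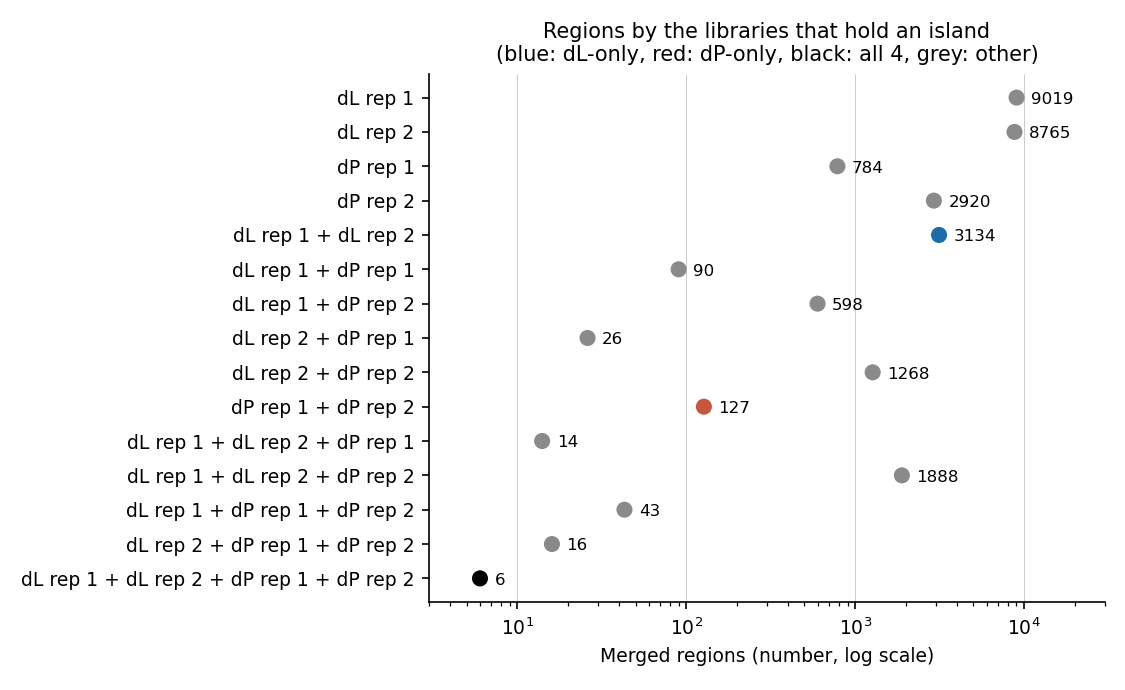
Number of merged regions, on a log axis, for each of the 15 combinations of libraries that hold an island. Both Epi-HOT-dL libraries without Epi-HOT-dP (3134, blue) and with Epi-HOT-dP replicate 2 (1888, grey) are the most frequent combinations of more than 1 library, and all 4 libraries (6, black) the rarest.

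These counts moved with single libraries. Leaving out Epi-HOT-dP replicate 1 left 3146 dL-only regions, which included all 3134, but raised dP-only regions to 3067 and kept regions to 1892. Leaving out Epi-HOT-dP replicate 2 gave 5026 dL-only, 923 dP-only and 20 kept regions. With Epi-HOT-dL replicate 1 or 2 left out, 12070 or 13933 regions were dL-only and 21 or 48 were kept. The excess of dL-only over dP-only regions held in each of these cases, but against Epi-HOT-dP replicate 2 alone it was 3146 against 3067, where the first count asks for 2 libraries and the second for 1. With these 3 lists also cut to 8077 islands each, an alternative chosen after seeing the data, the order turned to 878 dL-only against 4346 dP-only regions.

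Single libraries were also set against each other, with equal lists. Between Epi-HOT-dL replicate 2 and Epi-HOT-dP replicate 2, the full lists gave 12114 regions in the former alone, 3726 in the latter alone and 3216 shared. Cut by FDR to 8077 islands each, they gave 5647, 4799 and 2264. For Epi-HOT-dL replicate 1 and Epi-HOT-dP replicate 2, the full lists gave 14056, 5549 and 2356, and the equal lists 6823, 6809 and 1174. Equal lists bring the counts of the 2 sides close by construction, and most regions were still in 1 library of the pair. Epi-HOT-dP replicate 1 shared 13 of 2215 regions with Epi-HOT-dL replicate 1 and 0 of 2228 with replicate 2 when lists were cut to 1114 islands.

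LSD1 regions held by Epi-HOT-dL and absent from Epi-HOT-dP were of moderate width, with median FDRs near those of all Epi-HOT-dL islands. Their median width was 10.6 kb (quartiles 6.2 and 18.6), and 2716 of them (86.7%) consisted of 1 island per library. Replicate 2 supplied most of the length, with a median of 9.4 kb of islands per region against 4.2 kb in replicate 1. Median FDRs were 0.00804 and 0.00185 in replicates 1 and 2, against 0.00797 and 0.00266 over all islands of these libraries. Both FDRs were at or below 0.001 in 354 regions (11.3%). The larger of them lay between 0.01 and the authors' limit of 0.05 in 1919 (61.2%). Of all single islands of replicates 1 and 2, 45.5% and 32.7% had an FDR over 0.01. Islands just past the limit are not listed, so how many dL-only regions narrowly missed a call in Epi-HOT-dP was not tested.

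The stronger and longer a region was in Epi-HOT-dL, the more often Epi-HOT-dP replicate 2 held it too. Ordered by the FDR of Epi-HOT-dL replicate 2, the strongest of 10 equal groups of the 5042 regions (FDR up to 7.00e-14) had an island in Epi-HOT-dP replicate 2 in 75.4% (71.5 to 79.1) and the weakest group in 19.6% (16.2 to 23.3). With the order from Epi-HOT-dL replicate 1 the fall was shallower, from 48.9% to 25.7%. Length showed the same direction, from 89.5% in the longest group of replicate 2 (51.6 kb or more) to 10.9% in the shortest. Longer regions have more bases to meet an island by. Merging also works in this direction, since an island of Epi-HOT-dP replicate 2 can join several Epi-HOT-dL islands into 1 region. Such a region then has their summed length and their smallest FDR. Regions with Epi-HOT-dP replicate 2 alone merged a median of 4 islands of any library, against 2 in dL-only regions. The part of either in the fall was not tested. Regions with Epi-HOT-dP replicate 2 had a median width of 33.6 kb and a median FDR of 6.58e-06 in Epi-HOT-dL replicate 2. Across the 5042 regions the FDRs of the Epi-HOT-dL replicates were only weakly related, with a Spearman's rho of 0.191 over regions, which are not independent replicates, and island lengths more so (rho 0.567).

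**Figure D3:**
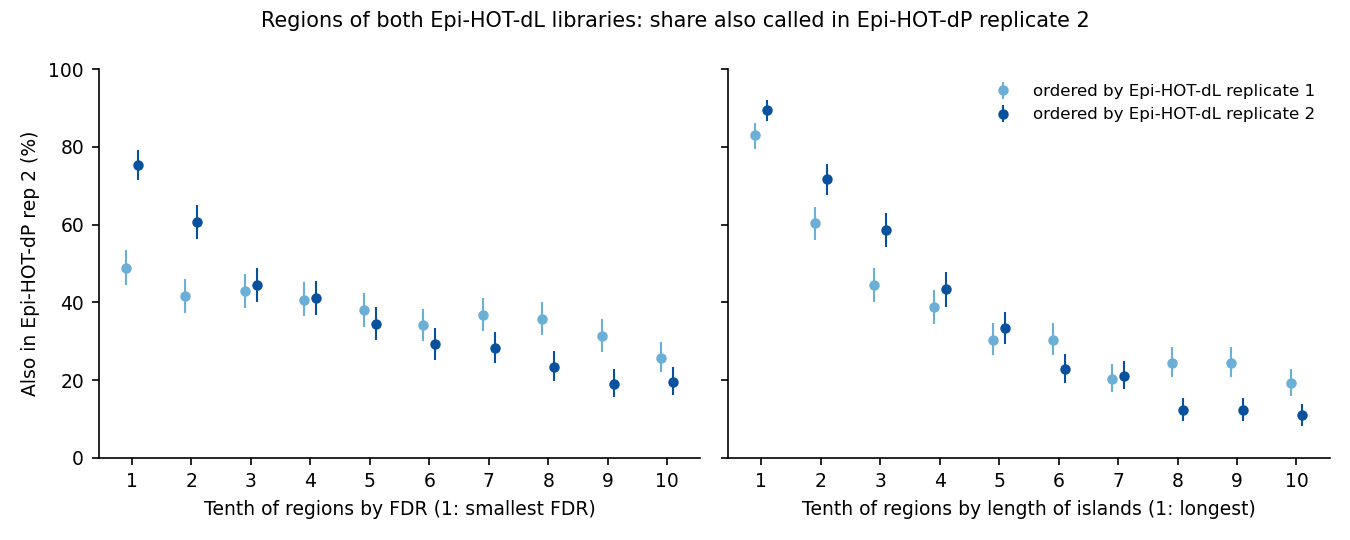
Share in percent of regions of both Epi-HOT-dL libraries that also had an island in Epi-HOT-dP replicate 2, by 10 equal groups of FDR (left) and of island length (right), ordered by Epi-HOT-dL replicate 1 or 2. Points are shares and bars exact 95% binomial intervals. The share falls from 75.4% to 19.6% with FDR and from 89.5% to 10.9% with length in the order of replicate 2.

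Distances from dL-only and dP-only regions to the nearest LSD1 island of the other line are given as a description. They were not measured for regions at large, so no nearness particular to a class can be read from them. For dL-only regions, the nearest Epi-HOT-dP island was a median of 44.2 kb away, or 46.4 kb for replicate 2 alone. It lay within 10 kb of 525 regions (16.8%) and within 100 kb of 2178 (69.5%). For dP-only regions, the nearest Epi-HOT-dL island was a median of 29 kb away, and 108 (85%) had one within 100 kb, where Epi-HOT-dL has more islands to be near. Without Epi-HOT-dP replicate 1 that median was 15.8 kb, and 89.1% had one within 100 kb.

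Along the genome, the classes were spread differently over the chromosomes. The dL-only regions were densest on chromosomes 19 and 22, which are rich in genes, at 36.1 and 30.8 regions per 10 Mb, followed by chromosomes 17 and 20 at 22.3 and 20.4. They were sparsest on chromosome 13, at 5.13, and chromosomes 5, 18, 4 and 3 followed at 6.03 to 6.46. Chromosome 19 held 212 of them (6.76%, 5.91 to 7.7) on 2.11% of the autosomal extent, against 4.02% of all regions. Chromosomes 22, 17 and 20 held 3.35%, 5.78% and 4.08% of dL-only regions, close to their 2.85%, 5.3% and 3.84% of all regions. Of all islands, chromosome 19 carried 6.37% and 5.62% in Epi-HOT-dL replicates 1 and 2 and 6.56% in Epi-HOT-dP replicate 2, but 0.359% in Epi-HOT-dP replicate 1. By contrast, 47 of the 127 dP-only regions (37%, 28.6 to 46) lay on chromosome 13 and 1 on chromosome 19 (0.787%, 0.0199 to 4.31), with none on chromosomes 10, 21 and 22. Of all 28698 regions, 3.68% lay on chromosome 13.

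Within chromosome 13, 43 of the 47 lay between 90 and 110 Mb, the stretch where Epi-HOT-dP replicate 1 is concentrated. The stretch of chromosome 8, which was centred on a dP-only region, held 6 more. Outside both stretches 78 dP-only and 3127 dL-only regions remained. With Epi-HOT-dP replicate 1 left out, chromosome 13 held 6.55% of the 3067 regions of replicate 2 alone and chromosome 19 held 1.99%, against 1.59% and 6.74% of dL-only regions. Of the 1892 regions that replicate 2 then shared with both Epi-HOT-dL libraries, 205 (10.8%) were on chromosome 19, against 61 that it held there without either Epi-HOT-dL library. These shares rest on 1 Epi-HOT-dP library and have no replicate error.

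The outermost 5 Mb of the part of each chromosome that islands span showed a similar contrast. Of the dL-only regions, 760 (24.3%, 22.8 to 25.8) lay within 5 Mb of the first or last island of their chromosome, against 16.1% of all 28698 regions and 7 of the 127 dP-only regions (5.51%, 2.24 to 11). Outside both stretches it was 7 of 78 dP-only regions (8.97%, 3.68 to 17.6). Without Epi-HOT-dP replicate 1 the shares were 24.2% of dL-only, 8.44% of dP-only and 24.6% of kept regions.

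Regions of both Epi-HOT-dL libraries were also held by Epi-HOT-dP replicate 2 more often where such regions were dense. The highest shares were those of chromosomes 22, 19 and 17, at 50%, 49.2% and 47.8%, and the lowest those of chromosomes 6, 8 and 4, at 23.9%, 24.7% and 26.4%. Over 22 chromosomes the density of these regions and the share also in Epi-HOT-dP replicate 2 had a Spearman's rho of 0.806. It is given as a description because all points come from the same 3 libraries. Neither region width nor the density of Epi-HOT-dP replicate 2 islands was held fixed here. Chromosomes 22, 19 and 17 carried 4.05%, 6.56% and 6.86% of those islands on 1.23%, 2.11% and 2.91% of the autosomal extent. For chromosomes 6, 8 and 4 it was 3.44%, 3.58% and 2.07% on 6.13%, 5.25% and 6.85%.

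**Figure D4:**
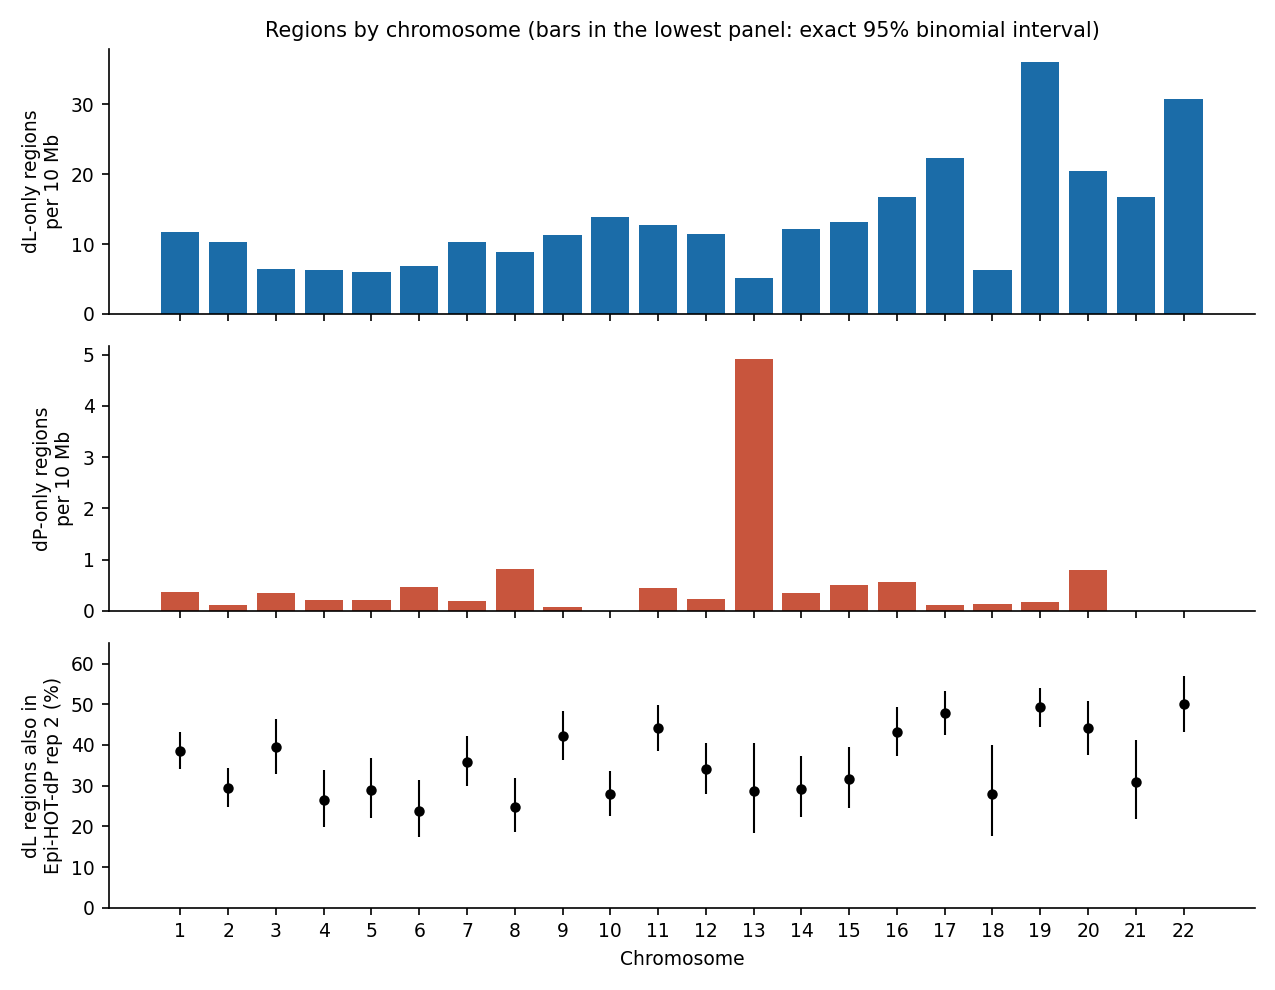
Number of dL-only regions (top) and dP-only regions (middle) per 10 Mb of each autosome, and share of regions of both Epi-HOT-dL libraries with an island in Epi-HOT-dP replicate 2 (bottom, points with exact 95% binomial intervals). Chromosomes 19 and 22 lead the top panel (36.1 and 30.8), chromosome 13 the middle one, and chromosomes 22, 19 and 17 the bottom one (50%, 49.2% and 47.8%).

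The lists of Epi-CTR (the control line) and Epi-HOT (full-length HOTAIR), which the classes did not use, were searched for islands at the regions. An island was present in both Epi-CTR libraries at 793 dL-only regions (25.3%, 23.8 to 26.9), in 1 of them at 31.2% and in neither at 43.5%. Over all 28698 regions the shares with both and neither were 15.4% and 60.1%. Among the 1888 regions that Epi-HOT-dP replicate 2 held as well, both Epi-CTR libraries had an island in 62% (59.8 to 64.2) and neither in 12.4%. Islands of Epi-CTR were thus found less often where Epi-HOT-dP lacked a region. The order was the same at like width. Both Epi-CTR libraries held 22.8% of dL-only regions up to 10 kb, against 46% of those also in Epi-HOT-dP replicate 2. From 10 to 20 kb the shares were 21.8% and 40.5%, from 20 to 40 kb 31.7% and 56.4%, and above 52.2% and 80.1%. Strength and the number of libraries were not held fixed. The dL-only regions were in 2 libraries by definition and the 1888 regions in 3. Their median FDRs in Epi-HOT-dL replicate 2 were 0.00185 and 6.58e-06. Counted by bases, the shares in both Epi-CTR libraries were 11.3% and 31.9%, against 6.41% of all bases in the 4 lists. Leaving out 1 library moved the dL-only share of 25.3%, to 13.4% or 11.1% without Epi-HOT-dL replicate 1 or 2 and to 38.4% without Epi-HOT-dP replicate 2, while without Epi-HOT-dP replicate 1 it stayed at 25.3%.

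Only 31 dL-only regions (0.989%) had an island in both Epi-HOT libraries and 2221 (70.9%, 69.2 to 72.5) in neither, against 0.516% and 82.4% of all regions. Nearly all of the overlap came from Epi-HOT replicate 1, which held 882 (28.1%, against 15.8% of all regions), while Epi-HOT replicate 2, with 1776 islands, held 62 (1.98%, against 2.29%). There were 1048 dL-only regions (33.4%, 31.8 to 35.1) with no island in any Epi-CTR or Epi-HOT library, and 460 (14.7%) with both Epi-CTR libraries and no Epi-HOT library. The shares over all regions were 53.2% and 9.65%, so dL-only regions had an island in another line more often than regions at large. They were also wider (median 10.6 against 6.2 kb) and in 2 libraries by definition, whereas 74.9% of all regions were in 1. At like width, the order for both Epi-CTR libraries depended on the width. Up to 10 kb they held 22.8% of dL-only against 9.62% of all regions, and from 10 to 20 kb 21.8% against 18%. From 20 to 40 kb the shares were 31.7% and 39.1%, and above 40 kb 52.2% and 73.5%.

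dP-only regions differed in which lists they met. Both Epi-CTR libraries held 20 of the 127 (15.7%, 9.89 to 23.3), close to the 15.4% of all regions, and neither held 75 (59.1%). The share with both was 10.9% without Epi-HOT-dP replicate 1 and 7.37% without replicate 2. Epi-HOT replicate 2 held 32 (25.2%, 17.9 to 33.7) and Epi-HOT replicate 1 held 11 (8.66%, 4.4 to 15), the reverse of the order for dL-only regions, against 2.29% and 15.8% of all regions. Within the stretch of chromosome 13, 0 of 43 had both Epi-CTR libraries and 10 had Epi-HOT replicate 2. Outside both stretches the counts were 20 and 20 of 78 (25.6% each), so the overlap with Epi-HOT replicate 2 was as large elsewhere. Without Epi-HOT-dP replicate 1 it was not: of the 3067 regions of replicate 2 alone, 2.77% met Epi-HOT replicate 2 and 8.18% met Epi-HOT replicate 1.

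**Figure D5:**
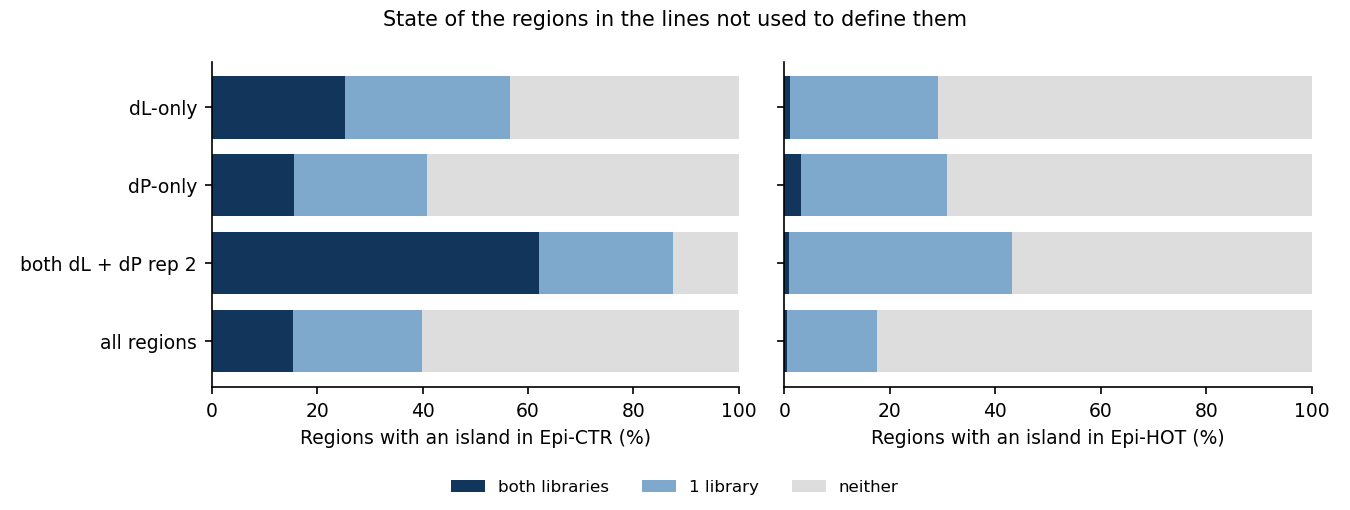
Percent of regions with an island in both, 1 or neither library of Epi-CTR (left) and Epi-HOT (right), for dL-only regions (3134), dP-only regions (127), regions of both Epi-HOT-dL libraries and Epi-HOT-dP replicate 2 (1888) and all regions (28698). Both Epi-CTR libraries held 25.3%, 15.7%, 62% and 15.4% of them in that order.

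The strongest dL-only regions, ordered by the worse of their ranks by FDR in the Epi-HOT-dL replicates, came from 8 chromosomes. Coordinates are of build hg19, counted from 1. First was a region of 37.2 kb at chr19:7976401-8013600, with FDRs of 2.57e-10 in replicate 1 and 1.14e-25 in replicate 2. It also had islands in Epi-CTR replicate 1 and Epi-HOT replicate 1. Another region of chromosome 19, chr19:1670801-1695000, was the eighth (4.62e-06 and 3.64e-21).

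Narrowest of the 10 was chr5:153568001-153571800, 3.8 kb wide, with FDRs of 7.62e-09 and 2.56e-22. Both Epi-CTR libraries held it with FDRs of 2.17e-19 and 2.74e-09, and neither Epi-HOT library did. At chr4:2059001-2089800 the FDRs were 1.01e-07 and 1.66e-19, and Epi-CTR replicate 2 alone of the other lines had an island, at 0.0212. By contrast, chr22:39555201-39590000 (2.87e-09 and 2.73e-17) was strong in both Epi-CTR libraries, at 1.86e-29 and 1.24e-10, and the nearest Epi-HOT-dP island lay 9.4 kb away. The regions at chr11:69448601-69485800 (6.48e-09 and 2.19e-18), chr10:135037801-135102600 (3.04e-06 and 1.33e-22) and chr16:1424601-1522600 (3.56e-06 and 1.58e-36) likewise had islands in Epi-CTR, in each replicate, and in Epi-HOT replicate 1.

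Of the 10, Epi-HOT replicate 1 had an island at 7 and Epi-HOT replicate 2 at none, and 5 had an island in each Epi-CTR replicate. The region chr9:108554601-108566400, 11.8 kb wide, had islands in Epi-HOT-dL and no other line, with FDRs of 1.58e-08 and 1.29e-14, and the nearest Epi-HOT-dP island was 673 kb away. The region chr16:89099001-89148400, 49.4 kb wide (8.43e-06 and 1.46e-21), lay 209 kb from an Epi-HOT-dP island and was called in Epi-HOT replicate 1. The widest dL-only region, chr9:138608401-138723000, spanned 115 kb and merged 7 islands. Its islands added up to 115 kb in replicate 2 and 36.6 kb in replicate 1, with FDRs of 5.82e-39 and 0.00197. At the third widest, chr3:50398801-50494800, the FDR was 0.0332 in replicate 1 and 1.05e-12 in replicate 2. In both, most of the width came from replicate 2.

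The order of dP-only regions began in the stretch of chromosome 13. The first, chr13:105473201-105481000, was called at FDRs of 6.79e-64 and 1.37e-05 (replicates 1 and 2 of Epi-HOT-dP), and no Epi-CTR or Epi-HOT library held it. The same was true of chr13:107478401-107487600 (1.21e-18 and 4.04e-05) and chr13:91871601-91878800 (3.65e-25 and 4.10e-05). In all 3 the smaller FDR was that of replicate 1. The region chr13:98143601-98162400 (3.66e-43 and 4.68e-05) was also called in Epi-HOT replicate 2 and weakly in Epi-CTR replicate 1, at 0.0402.

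Outside the stretches, chr4:10264601-10284400 had FDRs of 5.81e-51 and 4.38e-05 and was called in no other line, 111 kb from the nearest Epi-HOT-dL island. At chr11:48356601-48367400 (1.94e-78 and 1.05e-04) and chr4:99813001-99820200 (0.00448 and 1.04e-04), Epi-HOT replicate 2 also had an island. The widest dP-only region, chr4:190538401-190607000, was covered over its whole 68.6 kb by an island in each replicate (2.18e-193 and 0.00813), and Epi-HOT replicate 2 held it with 5.52e-09. Of the 10 first dP-only regions, 5 lay on chromosome 13, 3 had an island in Epi-HOT replicate 2, and 0 had one in each Epi-CTR replicate. With the widest added, 9 of 11 stayed dP-only at an FDR limit of 0.001. With lists of equal length 1 did, and at a limit of 1e-05 0 did. Among the 12 dL-only regions that were first or widest, 10 stayed dL-only in each of these settings.

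The 6 kept regions varied widely in strength. FDRs are given here in the order Epi-HOT-dL 1, Epi-HOT-dL 2, Epi-HOT-dP 1, Epi-HOT-dP 2. The first, chr4:57941601-57949600, had 3.14e-10, 2.03e-04, 1.65e-19 and 3.55e-04, and it was the one kept region also held by both Epi-CTR and both Epi-HOT libraries. At chr3:170062401-170085600 the FDRs were 1.40e-05, 0.00107, 0.0291 and 4.71e-05, and at chr8:38742001-38767800 they were 0.00349, 0.00221, 0.00681 and 1.99e-09. Both were called in both Epi-CTR libraries. The smallest, chr9:68458401-68460000, was 1.6 kb wide and nearly coincident in all 4 libraries, with 1.4 to 1.6 kb of island in each. The last 2, chr13:109775601-109795200 and chr13:105109601-105117600, lay in the stretch of chromosome 13 and were called in no Epi-CTR or Epi-HOT library. Without Epi-HOT-dP replicate 1, 4 of the 6 stayed kept, while chr8:38742001-38767800 and chr13:109775601-109795200 did not. Without Epi-HOT-dL replicate 1, chr3:170062401-170085600 was lost, and without Epi-HOT-dL replicate 2, chr8:38742001-38767800 was. Without Epi-HOT-dP replicate 2 all 6 stayed. Where a region was lost, an island of the library left out had joined islands of the other libraries that did not meet.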

How the data were processed

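The comparison used the island lists of 4 LSD1 IP libraries, 2 per line, with 4 lists of Epi-CTR and Epi-HOT for look-up. Per the labels, each list holds islands called for an IP against the Input of its culture with a window of 200 bp, a gap of 1000 bp and an FDR of 0.05, and a further filter was applied that the labels do not explain. Tools named in the submitters' processing notes are SICER 1.1 and Bowtie2 2.1.0, and the build is hg19. The deposited value is an FDR per island, an adjusted p-value made by the authors' caller. It served to order islands inside each list and to select them by rank or by a limit common to all lists. Depth is unknown, and its part in FDRs set side by side between libraries was not tested.

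Starts were shifted to count from 1. Regions, classes and overlaps were computed as described in the report and checked on simulated lists. Named regions were the 10 best per class by the worse rank, with the 3 widest dL-only and the widest dP-only region. Members, lists and rules were chosen with earlier results of these data known. P-values measure only the spread between replicate cultures. Genes are not named, since the gene table at hand is of another build than hg19. Alternatives were an FDR limit of 0.001, equal list lengths, all chromosomes, the stretches of chromosomes 13 and 8 left out, 50% reciprocal overlap, islands joined within 1 kb, islands over 50 kb left out and each library left out. An FDR limit of 1e-05, equal lists without Epi-HOT-dP replicate 1 and the replicate block were added after seeing the data. Scripts ran in Python 3.11.15 with scipy 1.17.1, pandas 2.3.3 and numpy 2.4.6, and figures in matplotlib 3.10.9.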

Additional observations from a re-analysis of the deposited data

How the results depend on the processing

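The dL-only regions outnumbered the dP-only regions under every alternative that kept both Epi-HOT-dP libraries, but the counts moved. An FDR limit of 0.001 left 498 dL-only, 37 dP-only and 1 kept region, and a limit of 1e-05 left 84, 3 and 0. Lists of equal length gave 97, 8 and 0 and a width ratio of 1.16. The 50% reciprocal overlap, counted on islands of replicate 1, gave 1319 dL-only and 1 kept. Leaving out the stretches of chromosomes 13 and 8 left 78 dP-only regions, 25.6% of them in both Epi-CTR libraries. With an FDR limit of 0.001 in all lists, 26.9% of dL-only and 5.41% of dP-only regions were in both Epi-CTR libraries, and 73.3% of dL-only regions in neither Epi-HOT library. Without Epi-HOT-dP replicate 1 and with lists of 8077 islands, 878 regions were dL-only, 4346 dP-only and 910 kept, and the ratio of covered length turned to 0.894. The turn of the order there follows partly from asking for 2 libraries on one side and 1 on the other, and shorter lists lower all counts by construction. No ratio of island numbers exists for lists of equal length.

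With each library left out in turn, dL-only regions ranged from 3146 to 13933, dP-only from 144 to 3067 and kept from 20 to 1892. The ratios ranged from 2.01 to 14.5 for island numbers, 1.6 to 9.93 for covered length and 0.414 to 0.828 for width. The share in both Epi-CTR libraries ranged from 11.1% to 38.4% for dL-only and 7.37% to 20.2% for dP-only regions, and the share in neither Epi-HOT library from 65.6% to 82.9% and 65.5% to 89.2%. With the replicate number as a block, the ratio of island numbers stayed at 5.4, that of covered length at 3.98 and that of width at 0.585 (exact sign-flip permutation p = 0.5 for numbers, the smallest that 2 pairs allow); nothing in the labels ties cultures of equal number across lines.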

Other observations

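LSD1 islands of Epi-HOT-dP replicate 1 met the islands of Epi-HOT-dL replicate 1 more often than those of replicate 2, although replicate 2 covered 2.62 times the length. Of its 1114 islands, 147 (13.2%) met an island of Epi-HOT-dL replicate 1 and 58 (5.21%) one of replicate 2. For Epi-HOT-dP replicate 2 the order was the reverse, with 31.3% and 53.9%. Likewise, 43 of the 192 regions of both Epi-HOT-dP libraries had an island in Epi-HOT-dL replicate 1 alone and 16 in replicate 2 alone. Epi-HOT-dP replicate 1 met Epi-CTR replicates 1 and 2 at 25.4% and 16.9% of its islands, and Epi-HOT replicates 1 and 2 at 7% and 16.5%.

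The share of dL-only regions with no island in any Epi-CTR or Epi-HOT library was 33.4%, against 8.79% of the 1888 regions that Epi-HOT-dP replicate 2 held as well, 44.9% (36.1 to 54) of the dP-only regions and 53.2% of all regions.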
